A study of Mus musculus with 4 samples.

Results

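The TNF superfamily ligands and their receptors were measured in splenic DC of WT and MARCO-/- mice that had been cultured overnight with PBS or LPS, a bacterial ligand of TLR4. The members were all genes of the array whose symbol starts with Tnfsf or Tnfrsf and a number, together with Lta, Ltb, Ltbr, Fas and Fasl. This gave 33 genes of 17097 in all, read by 54 probe sets of 45037. They comprised 11 ligands, 21 receptors and Tnfsf13os, a non-coding RNA whose symbol also fits. Of the receptors, 5 were death receptors, 13 were receptors that bind TRAF adaptors and 3 were decoy receptors. Tnf, Cd40 and Cd70 belong to the same superfamily and were not counted here.

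There were 4 groups with 1 array each: WT DC with PBS, WT DC with LPS, MARCO-/- DC with PBS and MARCO-/- DC with LPS. The mice were adult, and the labels give their background as C56BL/6, where the methods name C57BL/6. MARCO is a scavenger receptor of macrophages and DC, and MARCO-/- mice lack it in every cell of the body, and the matched WT controls were bought from a supplier. DC were taken from the spleen by positive selection for CD11c and were pooled from several animals, so each array stands for a pool. There are no replicates, hence no test and no error of a ratio, and a gene was called at a difference of at least 2-fold. The values are intensities normalized with RMA, a method that corrects the background and summarizes the probes of a set. Where several probe sets read a gene, the brightest stands for it.

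Ligands of this family are mostly membrane proteins that act as trimers, and many can also be shed from the cell. Death receptors carry a death domain through which they can trigger apoptosis. The other signalling receptors recruit TRAF adaptors, which activate the transcription factor NF-κB, and decoy receptors bind a ligand without passing on a signal. DC use ligands of this family, such as OX40L and 4-1BBL, to costimulate T cells, and BAFF and APRIL to sustain B cells and plasma cells.

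The median of all intensities was 4.87, and values near or under it are called background here. The Marco probe set gave 8.05 for WT and 3.95 for MARCO-/- DC with PBS, and 3.15 and 4.25 with LPS, all near that level. Of 7 DC markers, 4 were at least 2-fold lower with LPS in WT and 5 in MARCO-/- DC, and 1, the transcription factor Zbtb46, was 2.61-fold higher in MARCO-/- DC. Their summed intensity was 12104 with PBS and 5366 with LPS in WT, and 12652 and 4735 in MARCO-/- DC. H2-Aa, a chain of MHC class II, stayed bright, with 4999.8 and 3013 in WT and 5231 and 2035 in MARCO-/- DC. Itgax, which encodes CD11c, had 548 and 12.9 in WT and 621 and 16.4 in MARCO-/- DC. The WT LPS array and the MARCO-/- PBS array stood apart by transcripts of stroma and skeletal muscle. The intensities of 12 stromal markers summed to 88.2 in WT with PBS, 1843 in WT with LPS, 586 in MARCO-/- with PBS and 62.5 in MARCO-/- with LPS, and those of 5 muscle markers to 23.7, 419.9, 159.8 and 22.9. Each of the 4 comparisons holds 1 of these arrays, and leaving one out would remove its group, so values without them could not be given and their part was not tested. Markers of other splenic cells are given beside some of the members they may bear on. The part of such cells in the values of the remaining members was not tested. Neutrophil markers were lower with LPS, all 4 of them past 2-fold in each genotype, and their sum was 361 and 36.7 in WT and 282 and 16.8 in MARCO-/- DC with PBS and LPS. In such bulk samples, fewer cells of a type and less RNA per cell cannot be told apart.

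Of the 33 genes, 9 were at least 2-fold higher with LPS than with PBS in WT DC, where 6.2% of all genes were, and 6 were at least 2-fold lower, where 8.31% were. In MARCO-/- DC, 9 were higher (6.32% of all genes) and 5 were lower (5.98% of all genes). The counts of lower members depended on dim values: with an offset of 16 added to every intensity they were 3 in WT and 2 in MARCO-/- DC. The 9 higher genes were the same in both genotypes, and the 5 lower genes of MARCO-/- DC were all among the 6 of WT DC. Members past 2-fold in opposite directions were not seen. Genes called in both genotypes were not counted over all genes, so no such share stands beside this overlap. The median log2 ratio of the members was 0.04 in WT and 0.08 in MARCO-/- DC, against 0.05 and 0.00 over all genes. By role, 7 of 13 TRAF-binding receptors, 1 of 5 death receptors and 1 of 11 ligands were higher in both genotypes. None of the TRAF-binding receptors was lower, whereas 2 death receptors were lower in both genotypes and 4 ligands were lower in WT, 3 of them in MARCO-/- DC too.

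**Figure D1:**
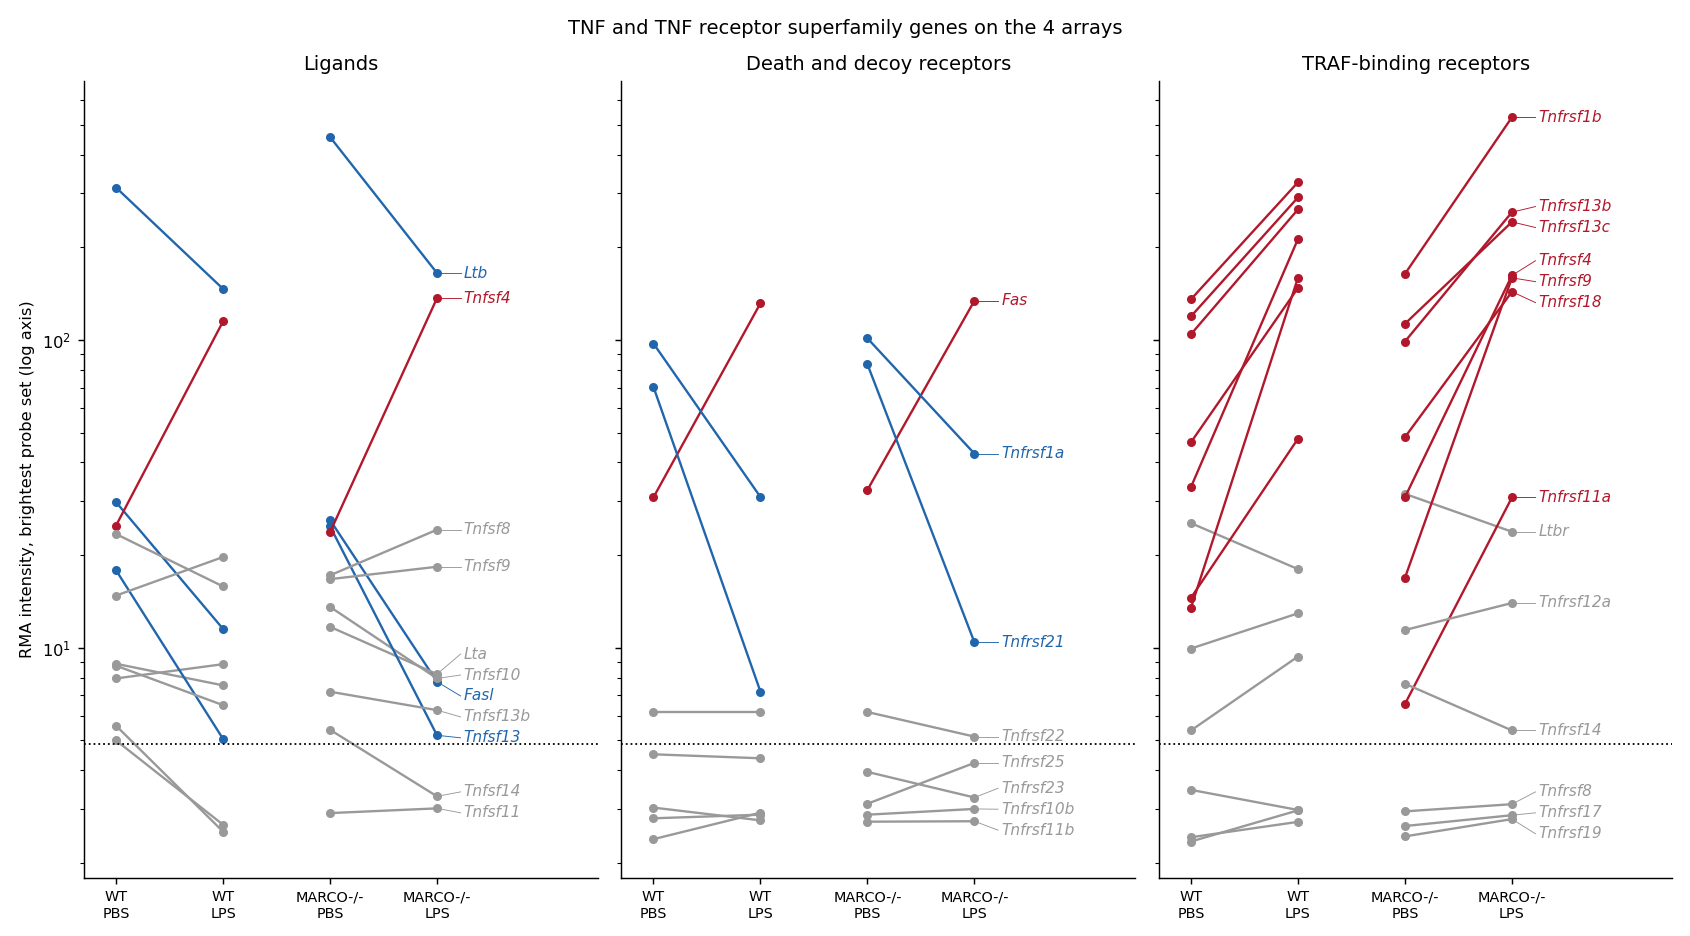
RMA intensity (log axis) of the brightest probe set of each ligand and receptor gene on the 4 arrays, by role; each point is 1 array and lines join PBS and LPS of a genotype. Red marks genes at least 2-fold higher with LPS in both genotypes, blue those at least 2-fold lower in both, and grey the rest; the dotted line is the median of all intensities, 4.87. All 7 red genes of the right panel are TRAF-binding receptors, from Tnfrsf11a at 30.8 to Tnfrsf1b at 529 on the MARCO-/- LPS array.

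Tnfrsf9, which encodes 4-1BB, a costimulatory receptor of activated lymphocytes that DC can also express, had the highest ratio of the family. Its intensity was 13.5 in WT with PBS, 159 in WT with LPS, 16.9 in MARCO-/- with PBS and 159 in MARCO-/- with LPS. It was thus 11.8-fold higher with LPS in WT and 9.43-fold higher in MARCO-/- DC. A further probe set went from 8.75 to 97.6 in WT and from 6.15 to 78.9 in MARCO-/-, while the dimmest of its 3 probe sets stayed between 3.29 and 3.90. Both LPS arrays were therefore far above both PBS arrays in 2 of the 3 probe sets. The ligand of 4-1BB, Tnfsf9, had 23.4 and 15.8 in WT and 16.7 and 18.3 in MARCO-/- DC with PBS and LPS, within 2-fold.

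Tnfrsf4, which encodes OX40, a costimulatory receptor of activated T cells, had 33.3 in WT with PBS, 213 in WT with LPS, 30.8 in MARCO-/- with PBS and 162 in MARCO-/- with LPS. It was 6.39-fold higher with LPS in WT and 5.26-fold in MARCO-/- DC. Its ligand gene Tnfsf4, which encodes OX40L, a product of mature DC that sustains T cell responses, had 24.9 and 115 in WT and 23.7 and 137 in MARCO-/- DC. OX40L was 4.60-fold higher with LPS in WT and 5.76-fold in MARCO-/- DC, so both partners of this pair were higher. Tnfrsf18, the neighbour of Tnfrsf4 on chromosome 4 with no protein-coding gene between them, encodes GITR, a receptor of regulatory and activated T cells. Its intensity was 46.5 and 147 in WT and 48.3 and 143 in MARCO-/- DC, 3.17-fold and 2.97-fold higher. T cells carry OX40, GITR and 4-1BB. Of 9 T cell markers, 1 was at least 2-fold higher with LPS in WT (Thy1) and none in MARCO-/- DC, whereas 4 were lower in WT and 2 in MARCO-/- DC. Their summed intensity was 382 with PBS and 258 with LPS in WT, and 378 and 228 in MARCO-/-. The part of T cells in the OX40, GITR and 4-1BB values was not tested.

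Tnfrsf11a encodes RANK, the receptor by which T cells prolong the life of DC. It had 14.5 in WT with PBS, 47.7 in WT with LPS, 6.56 in MARCO-/- with PBS and 30.8 in MARCO-/- with LPS, and was 3.29-fold and 4.69-fold higher with LPS. The other probe set of Tnfrsf11a passed 2-fold as well, with 4.99 and 20.0 in WT and 3.64 and 33.1 in MARCO-/- DC. The gene of its ligand RANKL, Tnfsf11, had 4.9997 and 2.66 in WT and 2.90 and 3.01 in MARCO-/- DC, at the background. Osteoprotegerin, the secreted decoy of RANKL that stromal cells make, is encoded by Tnfrsf11b, and its intensity stayed between 2.39 and 2.91, also on the arrays with many stromal transcripts.

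Tnfrsf1b encodes TNFR2, the TNF receptor that lacks a death domain. Its intensity was 119 in WT with PBS, 290.3 in WT with LPS, 164 in MARCO-/- with PBS and 529 in MARCO-/- with LPS, so it was 2.43-fold and 3.23-fold higher with LPS. In its other probe set the values were 7.99 and 12.5 in WT and 9.44 and 17.9 in MARCO-/-, under 2-fold, and with both probe sets averaged the log2 ratio in WT was 0.97, just under the threshold. Tnfrsf1a, the gene of TNFR1 with a death domain, went the opposite way, with 97.3 and 30.9 in WT and 101 and 42.7 in MARCO-/- DC. This was 3.15-fold lower with LPS in WT and 2.37-fold lower in MARCO-/- DC, where the offset of 16 gave a log2 ratio of -0.998. For TNFR2 both LPS arrays thus lay above both PBS arrays, and for TNFR1 both lay below them.

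Both receptors of BAFF that were bright were higher with LPS. Tnfrsf13b encodes TACI, which binds BAFF and APRIL, and had 104 and 265 in WT and 98.8 and 260.1 in MARCO-/- DC. It was 2.54-fold and 2.63-fold higher. Tnfrsf13c encodes BAFF-R, the survival receptor of B cells, and had 135 and 325 in WT and 113 and 242 in MARCO-/- DC. It was 2.40-fold and 2.14-fold higher. Tnfrsf17, which encodes BCMA of plasma cells, had 2.35 and 2.96 in WT and 2.63 and 2.86 in MARCO-/- DC, at the background. B cells carry these receptors, and of 9 B cell markers none was at least 2-fold higher with LPS in either genotype, whereas 3 were lower in WT and 1 in MARCO-/- DC. Their summed intensity was 1998 with PBS and 2316 with LPS in WT, and 1456 and 1739 in MARCO-/- DC. Ms4a1, which encodes CD20, had 787 and 1113 in WT and 647 and 884 in MARCO-/-. Pax5, a transcription factor that defines B cells, stayed between 4.92 and 6.47, near the background. The part of B cells in the TACI and BAFF-R values was not tested.

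**Figure D2:**
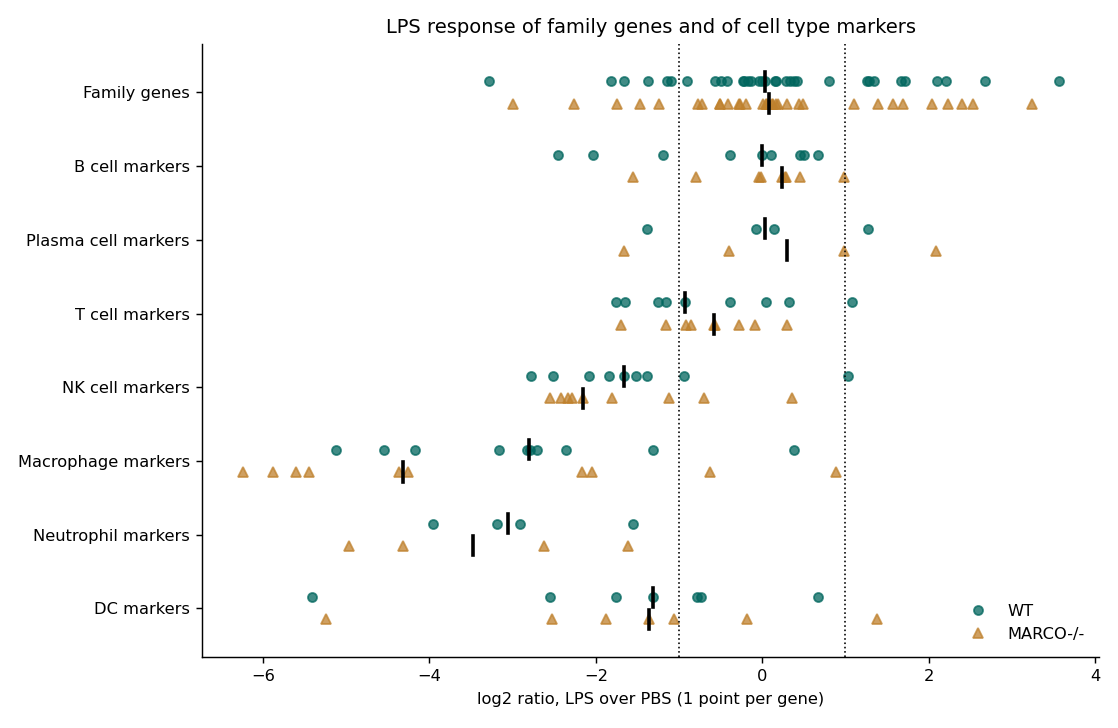
log2 ratio of LPS over PBS for the family genes and for marker lists of DC and of other immune cells, with 1 point per gene. Circles stand for WT, triangles for MARCO-/- DC and black bars for the median. Marker lists of stroma, skeletal muscle and endothelium are not drawn. The dotted lines mark 2-fold. The medians of the B cell markers were 0.00 in WT and 0.23 in MARCO-/- DC, and those of the macrophage markers -2.81 and -4.31.

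Among the death receptors, Fas, which starts apoptosis on binding Fas ligand, was higher with LPS. Its intensity was 30.8 in WT with PBS, 132 in WT with LPS, 32.6 in MARCO-/- with PBS and 134 in MARCO-/- with LPS. It was 4.27-fold higher in WT and 4.12-fold higher in MARCO-/- DC, and the genotypes lay within 1.06-fold of each other with PBS and within 1.02-fold with LPS. Its ligand gene Fasl was lower: 29.7 and 11.5 in WT and 26.0 and 7.75 in MARCO-/- DC, which is 2.58-fold and 3.36-fold lower. In the other probe set Fasl had 9.29 and 4.21 in WT and 7.16 and 3.08 in MARCO-/-, past 2-fold too. The LPS values are dim, and with the offset of 16 the log2 ratios were -0.73 and -0.82, under 2-fold. NK cells and cytotoxic T cells are the main source of Fas ligand. Of 9 NK cell markers, 7 were at least 2-fold lower with LPS in each genotype and 1 was higher in WT (Gzmb). The summed intensity of the NK cell markers was 1566 with PBS and 476 with LPS in WT, and 1244 and 329 in MARCO-/- DC, and their part in the Fasl values was not tested.

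Tnfrsf21, which encodes DR6, a death receptor that restrains T and B cell responses, had the lowest ratio of the family. It had 70.3 in WT with PBS, 7.196 in WT with LPS, 83.2 in MARCO-/- with PBS and 10.4 in MARCO-/- with LPS, or 9.77-fold and 8.003-fold lower with LPS. The LPS values lie near the background, which limits these folds. Its other probe set had 15.4 and 9.72 in WT and 17.02 and 9.61 in MARCO-/- DC, lower but under 2-fold. The remaining death receptors were at the background on all arrays: Tnfrsf10b, the TRAIL receptor, between 2.79 and 2.99, and Tnfrsf25, the receptor DR3, between 2.75 and 4.23. The decoy receptors were dim as well, with Tnfrsf22 between 5.14 and 6.18 and Tnfrsf23 between 3.26 and 4.505.

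Of the ligands, Ltb was the gene lower with LPS at the highest intensity. It encodes lymphotoxin β, which with lymphotoxin α acts on stromal cells to organize lymphoid tissue. Its intensity was 313 in WT with PBS, 147 in WT with LPS, 456 in MARCO-/- with PBS and 165 in MARCO-/- with LPS. The gene was 2.13-fold lower with LPS in WT, close to the threshold, and 2.77-fold lower in MARCO-/- DC. Lta had 8.87 and 7.55 in WT and 11.7 and 8.21 in MARCO-/-, and the receptor gene Ltbr had 25.4 and 18.0 in WT and 31.6 and 23.8 in MARCO-/- DC, all within 2-fold.

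Tnfsf13, which encodes APRIL, a survival factor of plasma cells made by myeloid cells, had 17.9 and 5.06 in WT and 24.8 and 5.19 in MARCO-/- DC with PBS and LPS. It was 3.53-fold and 4.78-fold lower, with both LPS values at the background, and with the offset of 16 the log2 ratios were -0.69 and -0.95, under 2-fold. Of 10 macrophage markers, 9 were at least 2-fold lower with LPS in WT and 8 in MARCO-/- DC, and their summed intensity was 1795 and 401 in WT and 2952 and 598 in MARCO-/- DC. Their part in the values of APRIL and of DR6 was not tested. Tnfsf14, which encodes LIGHT, a costimulatory ligand, was 2.21-fold lower with LPS in WT (5.58 and 2.53) and had 5.41 and 3.29 in MARCO-/- DC, under 2-fold. All 4 of its values were near the background and its other probe set stayed between 2.72 and 3.02.

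The ligand genes left were within 2-fold. Tnfsf8, the ligand of CD30, had 14.8 and 19.7 in WT and 17.2 and 24.2 in MARCO-/- DC, and its receptor gene Tnfrsf8 stayed between 2.94 and 3.45. Tnfsf13b, which encodes BAFF, had 8.74 and 6.51 in WT and 7.196 and 6.27 in MARCO-/-. Tnfsf10, which encodes the apoptosis ligand TRAIL, had 7.95 and 8.84 in WT and 13.6 and 7.95 in MARCO-/- DC. Among TRAF-binding receptors within 2-fold, Tnfrsf12a, the TWEAK receptor, stayed between 9.94 and 14.0, Tnfrsf14, the LIGHT receptor HVEM, between 5.38 and 9.36, and Tnfrsf19, the receptor TROY, between 2.42 and 2.77. Tnfsf13os stayed between 3.09 and 3.55. Of the 33 genes, 23 were above the median of all intensities on every array, 8 were at or under it on every array and 2 (Tnfsf11 and Tnfsf14) were above it on some. A gene at the background cannot be called unchanged, since a low level is not resolved there.

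**Figure D3:**
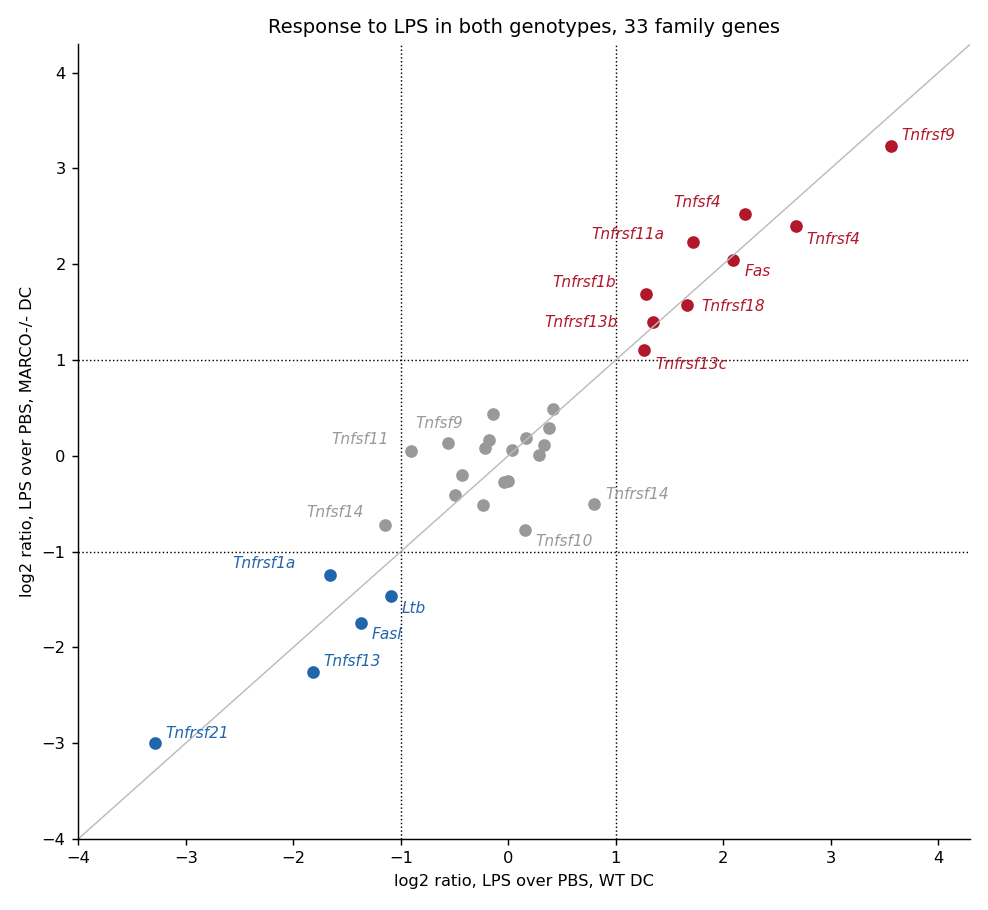
log2 ratio of LPS over PBS in WT (horizontal axis) and in MARCO-/- DC (vertical axis); each point is 1 of the 33 family genes, dotted lines mark 2-fold and the grey line marks equal ratios. Tnfrsf9 lies at 3.56 and 3.24, Fasl at -1.37 and -1.75, and the 9 red and 5 blue genes are past 2-fold in both genotypes.

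Known pairs of ligand and receptor were set side by side. Of 20 such pairs with both partners on the array, 1 had both partners at least 2-fold higher with LPS in each genotype (Tnfsf4 with Tnfrsf4), and none had both lower. In 2 pairs the partners went in opposite directions in each genotype, with the ligand lower and the receptor higher: Fasl with Fas, and Tnfsf13 with Tnfrsf13b. The LPS values of both ligands are dim. With the offset of 16 their log2 ratios in WT and MARCO-/- DC were under 2-fold (Fasl -0.73 and -0.82, Tnfsf13 -0.69 and -0.95). In 6 pairs of each genotype the receptor alone was past 2-fold, as with Tnfsf9 and Tnfrsf9 or Tnfsf11 and Tnfrsf11a. Tnfsf11 was at the background and cannot be called unchanged. The ligand alone was past 2-fold in 4 pairs in WT and in 2 in MARCO-/- DC, among them Ltb with Ltbr. Several pairs share a ligand or a receptor, so they are not independent. Pairs outside the family were not counted, so no share over all genes stands beside these counts.

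The question of the study is what MARCO contributes to the activation of DC by LPS. The ratios of LPS over PBS differed by less than 1.5-fold between the genotypes for 29 of the 33 genes, and for all 15 that were past 2-fold with LPS in either genotype. Over all genes, 20.0% differed at least 1.5-fold. That count of 15 holds for the deposited values of the brightest probe sets. It was 14 of 15 with median-centred arrays and with averaged probe sets, where Tnfrsf11a differed 1.53-fold and 1.80-fold, and 14 of 15 with cyclic loess, where Fasl differed 1.505-fold. In the other probe set of Tnfrsf11a the ratios differed 2.27-fold, with the higher ratio in MARCO-/- DC. The 4 exceptions had intensities of at most 23.4, and all but Tnfsf9 of at most 13.6. Tnfrsf14 had the largest difference, with 5.38 and 9.36 in WT and 7.64 and 5.38 in MARCO-/- DC, a difference of log2 ratios (MARCO-/- minus WT) of -1.30. The others were Tnfsf11 (0.96), Tnfsf10 (-0.93) and Tnfsf9 (0.70). In the other probe set of Tnfsf11 the log2 ratios of LPS over PBS were 0.33 in WT and 0.03 in MARCO-/- DC. There the higher ratio was in WT, unlike in the brightest probe set. The other probe sets of Tnfsf10 had -0.60 in WT and -0.94 in MARCO-/- DC, and 0.02 and -0.32, closer together than in the brightest. With 1 array per group, none of these differences could be tested.

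Between the genotypes directly, Tnfrsf11a alone passed 2-fold with PBS. Its intensity was 14.5 in WT and 6.56 in MARCO-/-, or 2.21-fold lower, and no member was higher. The MARCO-/- value lies near the background, and the log2 ratio, -1.15 as deposited, was -0.44 with the offset of 16 and -0.80 with the probe sets averaged, both under 2-fold. Among all genes, 0.287% were at least 2-fold lower and 0.76% higher. Its other probe set had 4.99 and 3.64, under 2-fold and near the background. With LPS the probe sets of Tnfrsf11a went in opposite directions, with 47.7 in WT and 30.8 in MARCO-/- for the brightest and 20.0 and 33.1 for the other. Tnfrsf11a lies on chromosome 1, as do Fasl, Tnfsf4 and Marco itself. With LPS, no member passed 2-fold between the genotypes in either direction, where 2.09% of all genes were higher and 1.31% lower in MARCO-/- DC.

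At 1.5-fold, 3 of the 33 members differed between MARCO-/- and WT DC with PBS (4.12% of all genes did) and 4 with LPS (13.7% of all genes did). With PBS these were Tnfrsf11a, Tnfsf11 (4.9997 in WT and 2.90 in MARCO-/-) and Tnfsf10 (7.95 and 13.6, 1.71-fold higher). The other probe sets of Tnfsf10 had 7.22 and 13.4, and 2.96 and 4.10, in the same direction. That of Tnfsf11 had 2.89 in WT and 3.01 in MARCO-/-, in the opposite direction and at the background. With LPS they were Tnfrsf11a, Tnfrsf14 (9.36 and 5.38), Tnfrsf25 (2.75 and 4.23) and Tnfrsf1b, which at 290.3 in WT and 529 in MARCO-/- was the bright gene among them. Its other probe set had 12.5 and 17.9. Ltb, at 313 in WT and 456 in MARCO-/- with PBS, was 1.46-fold higher, and at 147 and 165 with LPS 1.13-fold. With PBS, 2 of the 10 macrophage markers were past 2-fold in MARCO-/- over WT, both higher. With LPS, 3 were higher and 3 lower, among them Slc40a1, 2.46-fold higher, and C1qa, 6.06-fold lower.

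**Figure D4:**
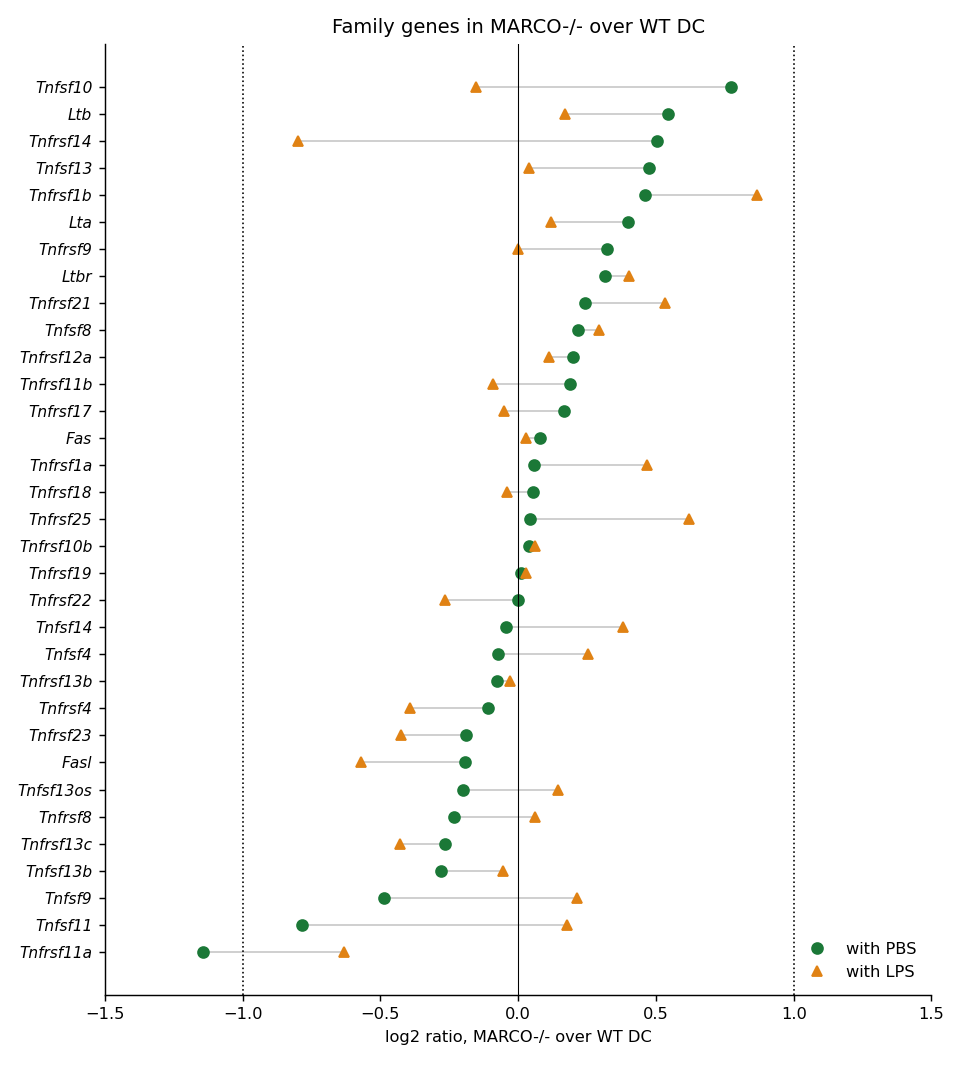
log2 ratio of MARCO-/- over WT DC for each family gene with PBS (circles) and with LPS (triangles), sorted by the ratio with PBS; dotted lines mark 2-fold. Tnfrsf11a with PBS, at -1.15, is the point outside the lines, and Tnfrsf1b with LPS has the highest ratio, 0.87.

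Of the 15 genes past 2-fold with LPS in WT, 9 had a single probe set, so that their ratio had no second reading on the array. In Fasl and Tnfrsf11a the other probe set passed 2-fold in the same direction in both genotypes. In Tnfrsf9 1 of the other 2 did. In Tnfrsf1b, Tnfrsf21 and Tnfsf14 the other probe set was under 2-fold, and no other probe set of a called gene passed 2-fold in the opposite direction. Of the 54 probe sets, 10 had exactly the same deposited value on 2 or more arrays, as Tnfrsf9 did on the LPS arrays of both genotypes. Over all probe sets this share was 24.6%, so an exact tie is not particular to these genes.

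**Figure D5:**
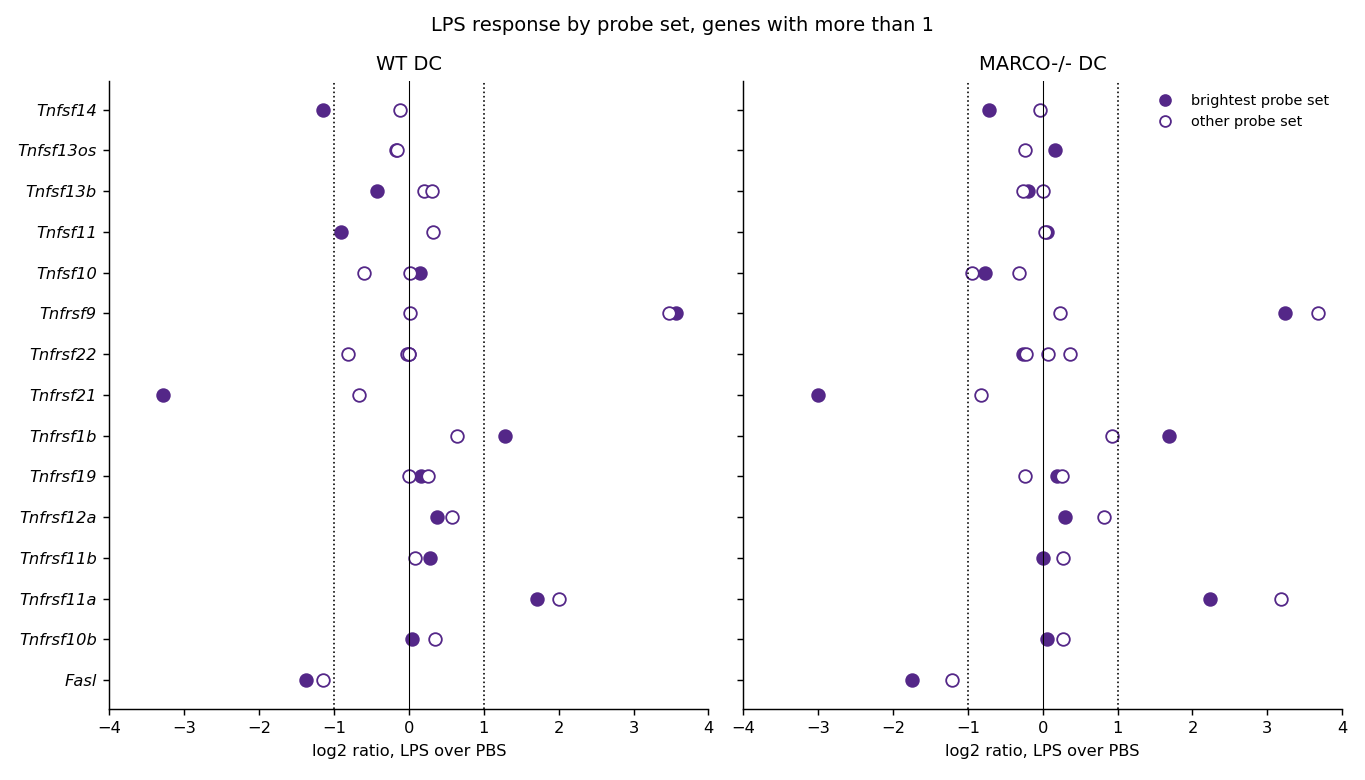
log2 ratio of LPS over PBS for each probe set of the 15 family genes that have more than 1, in WT (left) and MARCO-/- DC (right); filled points are the brightest probe set of a gene and dotted lines mark 2-fold. The probe sets of Tnfrsf21 lie at -3.29 and -0.66 in WT, and those of Tnfrsf9 at 3.56, 3.48 and 0.02.

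Because NF-κB acts downstream of TLR4, its recognition letters were looked for in the promoters of genes that moved together. RefSeq windows (GRCm38.p6) that run from 250 bases before to 50 bases after a transcription start were given for 27 of the 33 genes, as 31 windows. Shown are Tnfrsf9 (at the later of its 2 starts) and Fas, which were higher with LPS, Tnfrsf4, a higher gene with no match, Ltb, which was lower, and Tnfrsf21, the lowest. Capitals mark each match to a loose form of the NF-κB site, GGG and CC with any 5 bases between them, on either strand.
Tnfrsf9: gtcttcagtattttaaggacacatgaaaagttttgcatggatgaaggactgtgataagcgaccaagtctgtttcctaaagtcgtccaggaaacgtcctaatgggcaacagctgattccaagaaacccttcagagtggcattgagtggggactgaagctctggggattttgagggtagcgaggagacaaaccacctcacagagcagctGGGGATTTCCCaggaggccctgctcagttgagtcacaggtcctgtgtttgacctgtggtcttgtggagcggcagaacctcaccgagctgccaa
Fas: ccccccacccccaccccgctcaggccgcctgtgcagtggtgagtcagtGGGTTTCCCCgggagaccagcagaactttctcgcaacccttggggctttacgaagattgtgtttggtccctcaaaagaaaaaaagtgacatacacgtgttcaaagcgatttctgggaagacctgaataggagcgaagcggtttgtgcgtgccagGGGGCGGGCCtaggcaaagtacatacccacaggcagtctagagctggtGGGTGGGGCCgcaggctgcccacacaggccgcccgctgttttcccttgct
Tnfrsf4: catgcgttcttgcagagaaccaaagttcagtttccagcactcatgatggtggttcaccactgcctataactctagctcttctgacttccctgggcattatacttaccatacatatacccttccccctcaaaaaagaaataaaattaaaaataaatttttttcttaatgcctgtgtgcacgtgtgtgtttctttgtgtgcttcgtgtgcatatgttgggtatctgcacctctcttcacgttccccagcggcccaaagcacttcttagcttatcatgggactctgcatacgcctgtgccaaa
Ltb: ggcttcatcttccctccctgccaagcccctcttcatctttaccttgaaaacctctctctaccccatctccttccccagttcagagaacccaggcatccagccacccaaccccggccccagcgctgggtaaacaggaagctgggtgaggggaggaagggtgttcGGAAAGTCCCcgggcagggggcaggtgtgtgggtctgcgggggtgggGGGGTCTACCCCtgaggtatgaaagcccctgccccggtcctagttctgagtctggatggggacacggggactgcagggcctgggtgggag
Tnfrsf21: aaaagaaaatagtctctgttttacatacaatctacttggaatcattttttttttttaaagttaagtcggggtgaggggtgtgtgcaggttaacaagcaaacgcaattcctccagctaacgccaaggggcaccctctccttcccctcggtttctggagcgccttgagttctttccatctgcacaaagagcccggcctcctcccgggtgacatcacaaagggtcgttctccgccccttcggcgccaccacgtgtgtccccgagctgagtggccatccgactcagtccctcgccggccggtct
All 5 windows lie on the plus strand: Tnfrsf9 at chr4:150927749-150928048, Fas at chr19:34290409-34290708, Tnfrsf4 at chr4:156013445-156013744, Ltb at chr17:35194257-35194556 and Tnfrsf21 at chr17:43016305-43016604. In Tnfrsf9, 2 overlapping matches began 43 and 42 bases before the start, and in Ltb the first began 87 bases before it, with 3 overlapping ones from 40 bases. The Fas window held 3 matches, the first 202 bases before the start. Neither Tnfrsf4 nor Tnfrsf21 held these letters, and neither did the window at the earlier start of Tnfrsf9.

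This loose site was in 6 of 9 windows (66.7%) of genes higher with LPS in both genotypes, in 4 of 5 (80.0%) of genes lower in both, and in 10 of 17 (58.8%) of the other members. Of all 32851 windows, 50.8% held it. No test was made of these shares. The stricter NF-κB consensus, which also asks for purines and pyrimidines at inner places and is contained in the loose form, was in 8.46% of all windows. It was in 1 window of the higher genes (Tnfrsf9, 2 overlapping matches), in 1 of the lower genes (Ltb) and in 2 of the other members (Tnfrsf25 and Tnfrsf8). The letters TGANTCA, to which AP-1 factors bind, were in 7.81% of all windows. They were in 2 windows of the higher genes (Tnfrsf9, at its later start, and Fas) and in 1 of the lower genes (Tnfsf13). Among the other members they were in 4 windows of 3 genes (Tnfrsf8, Tnfsf13b and Tnfsf14). The windows of Tnfsf13b overlap and hold the same TGANTCA site, which is counted in both. In no window of a member did TGANTCA overlap a loose match. A match is a description of the letters and not evidence of binding.

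The proteins that carry the signal of these receptors were read from a list of 31 adaptors, kinases, regulators and shedding proteases, 28 of which had a probe set. Of these, 6 were at least 2-fold higher with LPS in WT DC and 3 were lower, and in MARCO-/- DC 8 were higher and 2 lower. Over all genes 6.2% were higher and 8.31% lower in WT, and 6.32% and 5.98% in MARCO-/- DC, so the lower genes of the list were about as frequent as among all genes. The median log2 ratio of the list was 0.18 in WT and 0.55 in MARCO-/- DC, against 0.05 and 0.00 over all genes. Traf1, an adaptor that binds TNFR2, 4-1BB and OX40 complexes, had 237 and 866 in WT and 251 and 813 in MARCO-/- DC. Traf2, the adaptor shared by most TRAF-binding receptors, had 37.6 and 118 in WT and 46.5 and 142 in MARCO-/- DC. Birc2, a ubiquitin ligase bound by Traf2, had 188 and 401 in WT and 201 and 547 in MARCO-/- DC. All 3 genes were past 2-fold in both genotypes, as were Rnf31, a subunit of the linear ubiquitin ligase, and Mlkl, the effector of necroptosis.

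Tnfaip3 encodes A20, which removes ubiquitin from these complexes and limits NF-κB. It was the bright gene among those lower with LPS, with 1128 and 367 in WT and 957 and 436 in MARCO-/- DC, and its other probe set passed 2-fold too. Cyld, another deubiquitinase, had 44.8 and 12.8 in WT and 42.3 and 23.8 in MARCO-/-, past 2-fold in WT. Sharpin, a partner of Rnf31, was 2.08-fold lower in WT (162 and 77.9) and had 146 and 103 in MARCO-/- DC, while its other probe set was under 2-fold. Higher in MARCO-/- DC alone were Tradd (3.75 and 7.95) and Traf4 (7.50 and 15.1), both dim and each with another probe set under 2-fold, and Ripk3 (44.2 and 22.0) was lower there. Map3k14, the kinase of the non-canonical NF-κB pathway, had 41.4 and 115 in WT and 47.1 and 239 in MARCO-/- DC. It was the gene of this list past 2-fold between the genotypes, 2.08-fold higher in MARCO-/- DC with LPS, with its other probe set past 2-fold as well. Over all genes, 2.09% were at least 2-fold higher and 1.31% lower in MARCO-/- over WT DC with LPS. With PBS none of the 28 genes was past 2-fold between the genotypes, where 0.76% of all genes were higher and 0.287% lower.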

How the data were processed

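RNA of CD11c-selected splenic DC was hybridized to Affymetrix mouse genome arrays, 1 array for each of the 4 groups. The intensity values were background-corrected, normalized and summarized per probe set with RMAexpress by the authors before they were deposited, on a linear scale. No RMAexpress version was found in the labels or methods. Of 45141 probe sets, 104 controls were left out. Symbols came from the platform annotation: 28898 probe sets had exactly 1 symbol, 551 had several (not used) and 15588 were not listed. Ratios were taken as log2 with no offset, and genes were called at 2-fold, the threshold of the methods. Tnfsf12, whose probe set has several symbols, was not analysed here.

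Values on all 4 arrays are given for members past 2-fold in any comparison whose brighter value exceeds the median of all intensities, and for their partners. The members, lists, pairs and rules were chosen with earlier results of these data known, and the stricter consensus and TGANTCA were added after the values had been seen. The counting was tested on simulated data. Python 3.11.15 (numpy 2.4.6, pandas 2.3.3, matplotlib 3.10.9) and R 4.3.3 with limma 3.58.1 (quantile, cyclic loess) were used. The number of arrays limits the precision, and folds against dim values depend on the background level. Whether other settings change the counts is given in the closing section.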

Additional observations from a re-analysis of the deposited data

How the results depend on the processing

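Counts of members past 2-fold were repeated with median-centred arrays, with quantile and with cyclic loess normalization, with an offset of 16 before log2, with each gene's probe sets averaged, without probe sets named x_at, s_at or a_at, 2 filters on low values, thresholds of 1.5-fold and 3-fold, and every probe set counted. Under the 3 normalizations, without those probe sets, with every probe set counted and with the filter at the median of all intensities, each count stayed within 1.5 times. With the offset of 16, 3 members were lower with LPS in WT and 2 in MARCO-/- DC, and 0 were lower in MARCO-/- over WT with PBS. With probe sets averaged, that last count was 0 too. Among the 4 members with a highest log2 value of at least 8, 3 were higher and 1 lower with LPS in each genotype, and 0 were lower in MARCO-/- with PBS, as fewer genes were counted. At 3-fold, 3 were lower with LPS in each genotype and 0 lower in MARCO-/- with PBS. At 1.5-fold, MARCO-/- over WT gave 1 higher and 2 lower with PBS, and 2 higher and 2 lower with LPS. Of 178 values of the 30 called ratios under the alternatives, 166 stayed past 2-fold, 12 fell under it and 0 changed sign. The log2 ratio of Tnfrsf11a, MARCO-/- over WT with PBS, was -0.44 with the offset and -0.80 with its probe sets averaged. Without s_at probe sets, Tnfrsf21 had -0.66 in WT and -0.82 in MARCO-/- DC. Averaged, Tnfrsf1b had 0.97 and Tnfsf14 -0.63 in WT. With the offset, Fasl had -0.73 in WT and -0.82 in MARCO-/- DC, Tnfsf13 -0.69 and -0.95, Tnfsf14 -0.22 in WT and Tnfrsf1a -0.998 in MARCO-/- DC. The comparison of LPS ratios between genotypes under these settings was added after seeing the data. No paired analysis was possible because each group has 1 array, and no array could be left out. Intensities near the background limit what can be said of the 8 members that never exceeded the median of all intensities.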

Other observations

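The probe set annotated with Tnfsf12, Tnfsf13 and Tnfsfm13 together, was left out because its signal cannot be assigned to 1 of them. Of the genes of the wider superfamily that carry other names, Relt, an orphan receptor, had intensities of 33.3 and 47.8 in WT and 51.5 and 58.1 in MARCO-/- DC with PBS and LPS, within 2-fold in each comparison. Cd27, the receptor of CD70, had 8.87 and 4.70 in WT and 8.17 and 5.11 in MARCO-/- DC.

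Some family genes lie close together in the genome. Of the 33 genes, 8 lie on chromosome 4. Of these, 4 were higher with LPS in both genotypes (Tnfrsf1b, Tnfrsf4, Tnfrsf9 and Tnfrsf18) and 0 lower. Of the 6 on chromosome 17, 0 were higher and 2 lower (Ltb and Tnfrsf21). Over all genes, 6.2% were higher and 8.31% lower with LPS in WT, and 6.32% and 5.98% in MARCO-/- DC. Shares for all genes of these chromosomes were not computed. Tnfrsf1b and its direct neighbour Tnfrsf8 differed: the first was 2.43-fold higher with LPS in WT, and the second was at the background. Tnfsf4 and Fasl on chromosome 1, with 1 protein-coding gene between them, went in opposite directions. The positions were taken from the RefSeq annotation, and whether position bears on the response was not tested.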
